A study of Mus musculus with 1790 samples.

Results

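Cxcr4, Ackr3, Erbb4, Nrg1, Dcx and Dclk1, genes of neuronal migration, were followed in the single cells of a mouse study of neurogliaform cells (NGCs), a class of cortical interneurons. They were chosen by name as 6 of the 49915 gene symbols in the tables of the series. All 6 had a row in the embryonic and patch-seq tables, whereas 5 had one at P15, where Nrg1 had none, and 5 at P30, where Ackr3 had none. The study asked where NGCs come from and how their subtypes emerge, and the comparisons here ask which of these genes differed between embryonic regions and differentiation stages and which still had counts after the cells had settled in the cortex. No test was possible, because the labels tie no cell to an animal and each sort or library was therefore 1 sample.

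Interneurons are born in the ventral forebrain and travel tangentially into the cortex. They follow the chemokine CXCL12, which is sensed by the receptor CXCR4, while the atypical receptor ACKR3 binds and clears the same ligand. ERBB4 is a receptor tyrosine kinase for neuregulins, among them NRG1, and the microtubule-associated proteins DCX and DCLK1 act within the leading process and around the nucleus of the moving cell.

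The embryonic cells came from E14.5 embryos. Wild-type, untreated cells of the preoptic area (POA) and of the caudal ganglionic eminence (CGE) were captured in droplets, 2106 and 4115 cells. FlashTag+ cells (352) were wild-type POA cells sorted for a dye that was injected into the lateral ventricle shortly before and stains progenitors lining the third ventricle. For these wild-type embryos the labels name C57BL/6, while the methods name C57BL/6 in one place and CD1 in another. The tdTOM+/GFP+ cells (418) were POA cells that carried Htr3a-GFP, a bacterial artificial chromosome transgene, and Hmx3-Cre;R26tdTOM, in which Cre driven by Hmx3 leaves a lasting tdTOM mark on cells of the Hmx3 lineage. FlashTag+ and tdTOM+/GFP+ cells were captured on microfluidic C1 chips. The postnatal cells were Htr3a-GFP+ cells of the same untreated genotype from the upper layers of somatosensory cortex, sorted with tdTOM (196 at P15, 301 at P30) or without it (194 and 280) and captured on C1 chips. A further 47 tdTOM+/GFP+ cortical cells of P14 to P25 were aspirated into a recording pipette (patch-seq). The labels give each postnatal cell a subtype name or call it inconclusive, and Dock5 below stands for Lamp5 Plch2 Dock5 and Lsp1 for Lamp5 Lsp1. Per the paper, classifiers assigned these names from the cells' own transcripts, so differences between labels may be partly built in. The series gives 3 to 5 biological replicates per time point, while the methods give 5 brains at P15 and more than 5 at P30. Cells of several animals were pooled.

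Median depth was 7574 and 5710 UMIs per cell in the POA and CGE droplets, 283979 and 356989.5 counts in FlashTag+ and tdTOM+/GFP+ cells, 204616.5 to 266555 in the postnatal sorts and 511936 in the patch-seq cells. The POA and CGE tables shared 12 cell barcodes. A level is the sum of a gene's counts over a group of cells, divided by all counts of the group and scaled to CPM. Ranges in parentheses are exact 95% intervals, Poisson for CPM and Clopper-Pearson for shares of cells, and they cover counting error only. Log2 folds were taken after 10 CPM had been added to both groups, and a gene counts as past the fold when its log2 fold reached 1 in size and its mean over both groups reached 20 CPM. C1 and droplet levels were not compared with each other.

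In GRCm38 (GENCODE M21), Cxcr4 is a gene of 4.095 kb on the minus strand of chromosome 1 (128588199 to 128592293) with at most 2 exons per transcript. Ackr3 lies on the plus strand of the same chromosome (90203980 to 90216751) and Erbb4 on its minus strand (68032186 to 69108059). Erbb4 spans 1075.9 kb with up to 28 exons and overlaps 8 annotated genes on its own strand. Nrg1 spans 1069.5 kb on the minus strand of chromosome 8 (31814551 to 32884029) with 18 annotated transcripts. Dcx lies on the minus strand of chromosome X (143855842 to 143933311) and Dclk1 on the plus strand of chromosome 3 (55242364 to 55539068), where it overlaps 4 genes on the same strand. Reads from overlapping genes on the same strand may not be separable from those of Erbb4 and Dclk1.

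RefSeq promoter windows of GRCm38.p6, from 250 bases before to 50 after a start, were at hand for 5 of the 6 genes. Windows of Cxcr4, Ackr3, Erbb4 and Dcx are shown 5′ to 3′ on the gene's strand. They are Cxcr4 at chr1:128592250-128592549 (minus), Ackr3 at chr1:90203730-90204029 (plus), Erbb4 at chr1:69108010-69108309 (minus) and Dcx at chrX:143933170-143933469 (minus). Capitals mark TAATTA, which reads the same on both strands and is the core of the letters that homeodomain factors such as DLX proteins recognise.
Cxcr4: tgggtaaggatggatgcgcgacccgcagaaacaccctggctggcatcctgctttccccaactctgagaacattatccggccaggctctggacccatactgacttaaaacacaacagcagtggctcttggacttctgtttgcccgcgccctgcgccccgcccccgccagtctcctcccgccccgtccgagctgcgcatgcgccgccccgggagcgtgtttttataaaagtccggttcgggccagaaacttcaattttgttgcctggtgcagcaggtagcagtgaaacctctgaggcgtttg
Ackr3: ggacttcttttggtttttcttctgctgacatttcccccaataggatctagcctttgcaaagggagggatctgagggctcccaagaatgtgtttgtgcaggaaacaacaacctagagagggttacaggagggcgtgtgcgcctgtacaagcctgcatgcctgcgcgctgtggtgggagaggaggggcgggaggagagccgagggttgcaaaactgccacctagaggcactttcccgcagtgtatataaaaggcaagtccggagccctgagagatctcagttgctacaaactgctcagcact
Erbb4: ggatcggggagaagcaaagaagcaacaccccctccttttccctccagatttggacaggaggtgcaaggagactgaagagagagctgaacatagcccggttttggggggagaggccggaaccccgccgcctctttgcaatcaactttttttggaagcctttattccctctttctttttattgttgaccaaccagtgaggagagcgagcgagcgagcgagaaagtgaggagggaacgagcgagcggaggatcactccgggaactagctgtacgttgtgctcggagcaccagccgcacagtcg
Dcx: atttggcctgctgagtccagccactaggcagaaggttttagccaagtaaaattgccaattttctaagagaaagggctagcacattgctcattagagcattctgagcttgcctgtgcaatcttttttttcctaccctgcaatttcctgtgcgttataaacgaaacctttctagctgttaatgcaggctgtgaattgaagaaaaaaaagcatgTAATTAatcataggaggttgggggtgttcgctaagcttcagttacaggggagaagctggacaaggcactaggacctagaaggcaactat

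The letters TAATTA were found once, at the start of Dcx, in a window that a second annotated start of the gene also covers, and so in 2 of the 7 windows of the 5 genes. Of all 32851 RefSeq windows, 1738 held them (5.291%). The Cxcr4 and Erbb4 windows were rich in CpG, with 20 and 17 CpG dinucleotides and 59.33% and 55.33% GC, the Ackr3 window had 8 and the Dcx window 3, at 54.0% and 43.0% GC. The median GC of all windows was 52.67%. These are descriptions of the letters and say nothing of whether a factor binds there.

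Droplet cells were put into classes by 14 markers. A cell was called post-mitotic when 7 neuronal genes (Gad1, Gad2, Dlx5, Dlx6, Dcx, Stmn2 and Tubb3) together had more counts than 7 progenitor or cycling genes (Hes1, Hes5, Nes, Fabp7, Sox9, Mki67 and Top2a), and progenitor-like in the opposite case. This gave 1558 post-mitotic and 539 progenitor-like POA cells and 2738 and 1336 CGE cells. Per the paper, clusters with markers of glutamatergic, Cajal-Retzius and other non-GABAergic cells had been removed, and the remaining cells were taken as GABAergic. Genes listed for other cell types still had counts in the POA class. Such counts do not assign a cell to another type, and whether the class was purely GABAergic was not tested. The glutamatergic list (6 genes, mostly Slc17a6 in the POA) had counts in 41.34% of post-mitotic POA and 17.24% of CGE cells, at 110.7 and 70.53 CPM, and the Cajal-Retzius list (3 genes, mostly Lhx1 and Lhx5) in 54.56% and 1.863%, at 211.1 and 6.204 CPM. The class is called post-mitotic here after its rule only. Hmx2 and Hmx3 were at 83.1 CPM together in the POA class and 1.463 CPM in the CGE class. Progenitor markers were at 743.9 CPM in the POA class and 979.3 CPM in the CGE class, and cycling markers at 272.6 and 696.6 CPM, with counts in 36.71% and 62.75% of cells. The part of these in the differences between the classes was not tested. Red-blood transcripts had counts in 98.72% of POA and 92.37% of CGE cells, at 2138.9 and 515.3 CPM. No droplet cell could be assigned to a type that should lack the 6 genes, so a background share for them was not measured.

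Among post-mitotic cells the chemokine receptors and Erbb4 were lower in the POA than in the CGE, while Nrg1, Dcx and Dclk1 differed by less. Cxcr4 had 82 counts in 69 POA cells and 228 in 195 CGE cells, 4.84 CPM (3.85 to 6.01) against 13.34 CPM (11.67 to 15.19). Ackr3 had levels of 14.34 CPM (12.59 to 16.26) and 55.6 CPM (52.12 to 59.25) and had counts in 12.0% (10.43 to 13.72) against 24.47% (22.87 to 26.13) of cells. Erbb4 was at 21.19 CPM (19.05 to 23.5) against 57.94 CPM (54.39 to 61.67), in 16.69% and 25.35% of cells. The intervals of all 3 genes were apart. The median cell of both libraries had no count of them, and single cells reached 338.0 and 763.1 CPM of Cxcr4, 657.3 and 1923.1 CPM of Ackr3 and 580.6 and 1212.5 CPM of Erbb4 in POA and CGE.

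**Figure D1:**
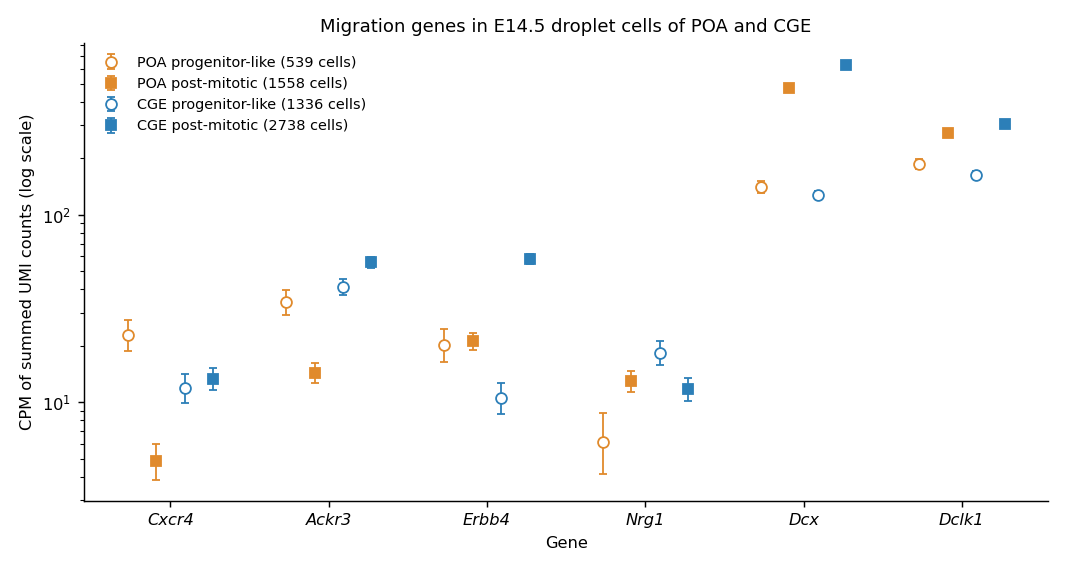
Level of each gene as CPM of summed UMI counts (log scale) in progenitor-like (open circles) and post-mitotic (filled squares) cells of the POA (orange) and CGE (blue) droplet libraries, with exact Poisson 95% intervals as bars. Post-mitotic POA cells lie below post-mitotic CGE cells for Cxcr4, Ackr3 and Erbb4 (14.34 against 55.6 CPM for Ackr3), and Erbb4 is at 10.5 CPM in CGE progenitor-like cells against 57.94 CPM in CGE post-mitotic cells.

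Of the 4 genes with a mean of 20 CPM or more, 2 were past the fold and both were lower in the POA, Ackr3 with a log2 fold of -1.43 and Erbb4 with -1.12. Over all 6354 genes read this way, 1.64% were lower and 1.98% higher in the POA. The median log2 fold of the 4 genes was -0.76, beside -0.02 over all. Cxcr4 had a log2 fold of -0.65 at a mean under 20 CPM. Dcx was at 475.0 CPM (464.7 to 485.5) in the POA and 628.1 CPM (616.3 to 640.1) in the CGE, with cell medians of 387.1 and 567.8 CPM and a log2 fold of -0.40. Dcx is also 1 of the markers of the class. Dclk1 was at 272.5 CPM (264.7 to 280.5) and 306.2 CPM (297.9 to 314.6), with cell medians of 229.7 and 269.9 CPM. Nrg1, the ligand, was at 12.93 CPM (11.27 to 14.75) and 11.71 CPM (10.14 to 13.45), and these intervals overlapped.

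Cells of the CGE were shallower, so shares were also taken after every cell had been thinned to 3200 UMIs, which left out 409 of the CGE post-mitotic cells and none of the POA. A count then remained in 1.28% of POA and 3.95% of CGE cells for Cxcr4, in 4.43% and 15.63% for Ackr3 and in 5.71% and 15.11% for Erbb4. Nrg1 went from 10.85% and 6.54% of cells without thinning to 3.92% and 3.56% with it, so that the shares came close at matched depth. Dcx remained in 70.8% and 82.48% of cells and Dclk1 in 51.86% and 61.87%.

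These values differed with the cells taken from the classes. In the 356 POA and 1906 CGE cells that had a Gad1 or Gad2 count and none of the glutamatergic or Cajal-Retzius lists, a subset chosen after the data had been seen, Ackr3 was at 22.6 against 59.54 CPM (log2 fold -1.09) and Erbb4 at 26.89 against 59.97 CPM (-0.92, no longer past the fold). Cxcr4 was at 4.29 against 13.19 CPM. Nrg1 was lower in the POA there, at 5.46 against 12.24 CPM. In another subset, post-mitotic cells with a count on the glutamatergic, Cajal-Retzius, microglia, vascular or red-blood lists were left out. Astrocyte and oligodendrocyte lists were not used for it. Red-blood transcripts alone had counts in 98.72% of POA and 92.37% of CGE cells, and 9 POA and 175 CGE cells were left. Erbb4 was at 71.9 CPM (19.6 to 184.1, 4 counts) and 65.5 CPM (48.8 to 86.1) in these. Ackr3 was at 18.0 CPM (0.455 to 100.2, 1 count) and 53.9 CPM (38.9 to 72.9). At this depth no difference was detectable for either gene. The part of other cell types in the remaining difference was not tested.

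POA cells with a count of Hmx2 or Hmx3, the second being the gene that drives Cre in the fate-mapped mice, had low chemokine receptor levels as well. These 365 post-mitotic cells were at 5.93 CPM (4.03 to 8.42) of Cxcr4, 10.9 CPM (8.26 to 14.12) of Ackr3 and 21.61 CPM (17.81 to 25.98) of Erbb4. The other 1193 were at 4.35 CPM (3.24 to 5.72), 15.88 CPM (13.68 to 18.33) and 21.0 CPM (18.46 to 23.79). The intervals overlapped for all 3 genes. In the 1061 POA cells with a count of Nr2f2, Prox1 or Sp8, factors typical of the CGE, Ackr3 was at 14.49 CPM and Erbb4 at 22.88 CPM, whereas the 2083 CGE cells with such a count were at 51.96 and 59.59 CPM.

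The order of the 4 droplet classes differed from gene to gene. Cxcr4 was highest in POA progenitor-like cells, at 22.77 CPM (18.73 to 27.42) and in 14.29% of them, while 4.43% of POA post-mitotic cells of nearly the same median depth (7595 and 7571 UMIs) had a count. CGE progenitor-like cells were at 11.88 CPM of Cxcr4, within the interval of the CGE post-mitotic cells. Ackr3 was at 34.25 CPM in POA and 41.32 CPM in CGE progenitor-like cells, with shares of 23.93% and 23.73%. Erbb4 had its lowest level in CGE progenitor-like cells, 10.5 CPM, and was at 20.1 CPM in POA progenitor-like cells, about the level of the POA post-mitotic cells. Nrg1 was at 6.15 CPM in POA and 18.26 CPM in CGE progenitor-like cells, and Dclk1 at 186.2 and 163.1 CPM.

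Few CGE cells carried more than 1 of the 3 receptor transcripts at matched depth. Among the 2329 thinned post-mitotic CGE cells, 92 had a Cxcr4 count, and 29 of those (31.52%) also had Ackr3, which 15.63% of all these cells had. Of the Cxcr4 cells, 25 (27.17%) had Erbb4, beside 15.11% of all. Of the 364 cells with Ackr3, 91 (25.0%) had Erbb4. Among the 1558 POA cells, 1 of the 20 with Cxcr4 had Ackr3, and 8 of the 69 with Ackr3 (11.59%) had Erbb4, beside 5.71% of all. The thinned depth was the same for all cells, and the cause of counts shared by a cell was not tested.

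From the list of 39 genes of migration pathways, which includes the 6, 26 could be read in post-mitotic cells, of which 6 were past the fold on the CGE side and 1 on the POA side. Apart from Ackr3 and Erbb4, the CGE side held, among others, the guidance receptor Epha4 (87.05 CPM in POA against 292.7 in CGE) and the transcription factors Dlx2 (198.5 against 446.0) and Zeb2 (97.32 against 294.1). The semaphorin receptor Nrp1 was on the POA side, at 153.8 against 41.09 CPM. Ligands and co-receptors had few counts. Cxcl12, the ligand of both chemokine receptors, was at 1.06 and 2.99 CPM (18 and 51 counts). Nrg2 was at 2.54 and 2.52 CPM, Nrg3 at 3.90 and 1.99, Nrg4 at 0.53 and 0.23 and Erbb2 at 2.18 and 0.41. Erbb3 had 1 count in the POA and 0 in the CGE, and 0 is under the limit of 3 counts.

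Differentiation was followed along a score for each cell, the log-transformed level of Dcx minus that of the progenitor gene Nes after thinning to 3200 UMIs. Cells fell into 5 bins, namely scores below 0, scores of 0 (mostly cells with neither gene) and 3 steps above 0 with the same limits in both libraries. The bins held 257, 754, 57, 508 and 530 POA cells and 456, 1039, 150, 649 and 1238 CGE cells, and 583 CGE cells were too shallow. The third bin is thin in both libraries and holds cells with counts of both genes. Levels are CPM of the unthinned counts of the cells of a bin.

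For Ackr3 the intervals of the libraries overlapped in the first bin and were apart in the later ones, and for Cxcr4 they overlapped in every bin but the last. Ackr3 was at 39.83 CPM in the first POA bin and at 19.26, 12.01, 15.69 and 14.15 CPM in the following ones, while in the CGE it was at 47.06, 44.6, 44.17, 47.7 and 57.32 CPM. Cxcr4 was at 17.26, 9.92, 4.37, 8.13 and 5.82 CPM in the POA and at 14.48, 10.01, 12.37, 11.38 and 14.74 CPM in the CGE. Both chemokine receptors were thus lower at the neuronal end of the POA order and about level along the CGE order.

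Erbb4 was higher at the neuronal end of the CGE order. In that library it was at 10.58, 18.16, 61.84, 40.91 and 67.23 CPM from the first to the last bin, and in the POA at 17.26, 18.98, 25.11, 21.37 and 23.26 CPM. In the first 2 bins the intervals of the libraries overlapped, and in the last bin they were apart.

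**Figure D2:**
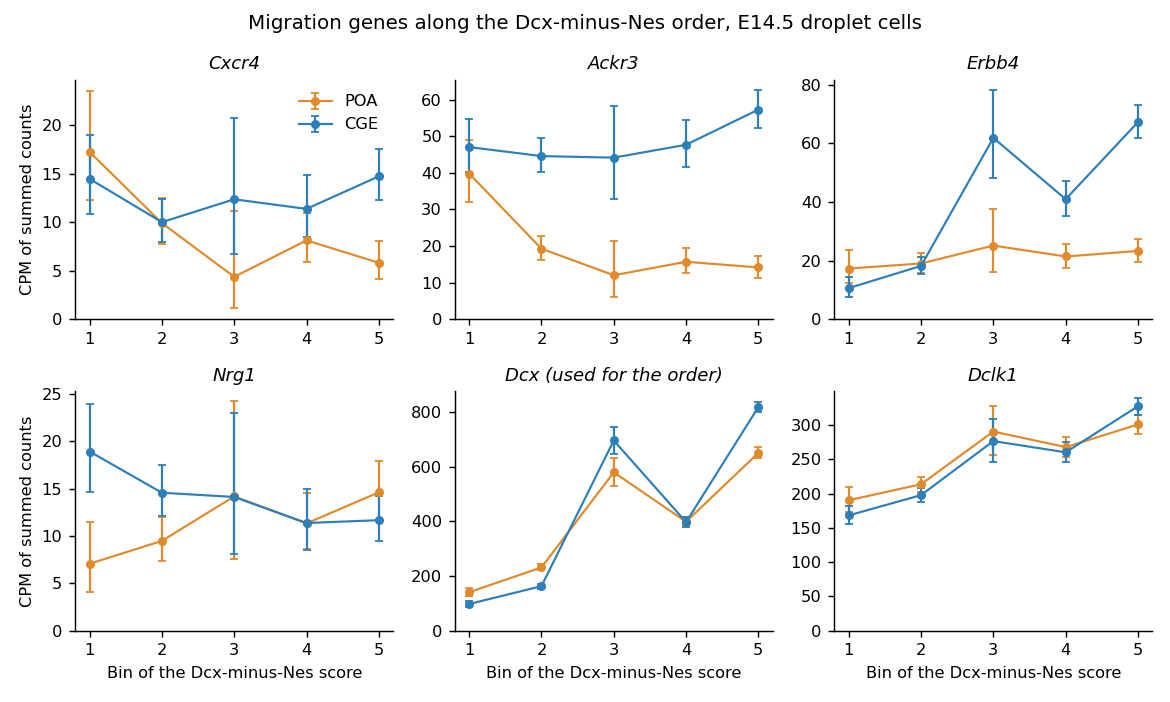
CPM of summed counts of each gene (vertical axis, from 0) in 5 bins of the Dcx-minus-Nes score (horizontal axis, from progenitor to neuronal) in the POA (orange) and CGE (blue) droplet libraries, with exact Poisson 95% intervals. Ackr3 is at 39.83 and 47.06 CPM in the first bin and at 14.15 and 57.32 CPM in the last, and Erbb4 ends at 23.26 and 67.23 CPM. Dclk1 ends at 300.7 and 327.3 CPM, with intervals apart. Dcx defines the order.

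From the first to the last bin, leaving out Dcx, 1 of the 3 genes read (Ackr3, Erbb4 and Dclk1) was past the fold in each library. In the POA this was Ackr3, with a log2 fold of -1.04, where 5.17% of the 6629 genes read were lower and 2.9% higher past the fold. In the CGE it was Erbb4, with 1.91, where 6.57% of the 6435 genes were higher and 7.33% lower. Cxcr4 had log2 folds of -0.79 in the POA and 0.02 in the CGE. Nrg1 differed in direction between the libraries, with 7.08 and 14.62 CPM in the first and last POA bins (0.53) and 18.93 and 11.68 CPM in the CGE (-0.42). Dclk1 went from 190.3 to 300.7 CPM in the POA (0.63) and from 168.2 to 327.3 CPM in the CGE (0.92). Dcx, which the order uses, went from 141.2 to 650.9 and from 98.01 to 818.8 CPM.

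With the score built from the other 6 neuronal and 6 progenitor markers instead, Dcx is no longer fixed by its own counts, and it was at 91.4 CPM in the first and 482.2 CPM in the last POA bin and at 111.4 and 730.4 CPM in the CGE. Ackr3 in the POA was at 39.71 and 11.49 CPM (log2 fold -1.21), Erbb4 in the CGE at 9.86 and 75.18 CPM (2.10), and Dclk1 in the CGE at 172.1 and 362.5 CPM (1.03). Cxcr4 in the POA was at 26.6 and 3.13 CPM, with a mean under 20 CPM. Other transcripts moved along the order too. Cycling genes were at 881.5 and 213.9 CPM at the ends of the POA order and at 1482.4 and 583.5 CPM in the CGE, and the Cajal-Retzius list was at 92.93 and 226.3 CPM in the POA. Red-blood transcripts in the POA bins were at 1398.8, 3533.4, 454.1, 2062.4 and 511.8 CPM. After the first bin, Cxcr4 and Ackr3 in the POA ranked the bins in the same order as these transcripts, and Erbb4 in the reverse order. The part of all these transcripts in the levels was not tested.

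Over the 10 library bins, Cxcr4 and Ackr3 went together (Pearson r = 0.85), as did Erbb4 and Dclk1 (0.75). These are descriptions over 10 points from 2 libraries in 1 order. Among 4488 other genes, those most like Ackr3 were Sox2 (0.97), Adh5 (0.96) and Hnrnph2 (0.95), and those most like Cxcr4 were Vps37b (0.95), Golga7 (0.92) and Nt5c3b (0.92). Erbb4 went with Grip1, Nxph1 and Mef2a (0.97 each). Dcx, which the order uses, went with Scrt1, Klf7 and Fnbp1l (0.99 each), and Dclk1 with Rabep1 (0.99), Klf7 (0.98) and Smarcc2 (0.98). Nrg1 was most like Rnf126 (0.90), Anapc1 (0.83) and Polr2l (0.82).

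The C1 cells of the embryonic POA set young cells near the ventricle beside cells of the Hmx3 lineage. By the same markers 301 of the 352 FlashTag+ cells (85.51%) were progenitor-like and 51 post-mitotic, whereas 412 of the 418 tdTOM+/GFP+ cells (98.56%) were post-mitotic. Differentiation stage, lineage and genotype therefore cannot be told apart between the sorts as a whole. Hmx2 and Hmx3 were at 164.2 CPM together in the tdTOM+/GFP+ cells and 0.913 CPM in the FlashTag+ cells.

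The chemokine receptors were almost absent from the counts of the tdTOM+/GFP+ cells. Cxcr4 had counts in 2 of 418 cells (0.479%, 0.058 to 1.72), 10 counts in all of which 90.0% lay in 1 cell, and in 86 of 352 FlashTag+ cells (24.43%, 20.03 to 29.27). The levels were 0.065 CPM (0.031 to 0.119) and 22.01 CPM (21.13 to 22.92), and the highest cells were at 24.83 and 1054.1 CPM. Ackr3 had counts in 13 tdTOM+/GFP+ cells (3.11%, 1.67 to 5.26) and 110 FlashTag+ cells (31.25%, 26.44 to 36.38), at 1.11 and 60.16 CPM, with highest cells at 204.8 and 1700.8 CPM. The median cell of both sorts had no count of either gene.

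Erbb4 was counted in 132 tdTOM+/GFP+ cells (31.58%) and 145 FlashTag+ cells (41.19%), at 38.63 CPM (37.65 to 39.62) and 98.86 CPM (96.98 to 100.8), and single cells reached 1748.2 and 2201.6 CPM. Nrg1 was rare in both sorts, with counts in 42 cells (10.05%) and 11 cells (3.13%), at 7.33 and 3.24 CPM. Dcx had a count in every tdTOM+/GFP+ cell, from 3.02 CPM over a median of 904.4 to 5083.2 CPM, and in 158 FlashTag+ cells (44.89%), with a median of 0 and a highest cell at 4647.0 CPM. Dclk1 had counts in 409 cells (97.85%) and 226 cells (64.2%), with medians of 442.5 and 7.75 CPM. The ranges of single cells overlapped for every gene.

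**Figure D3:**
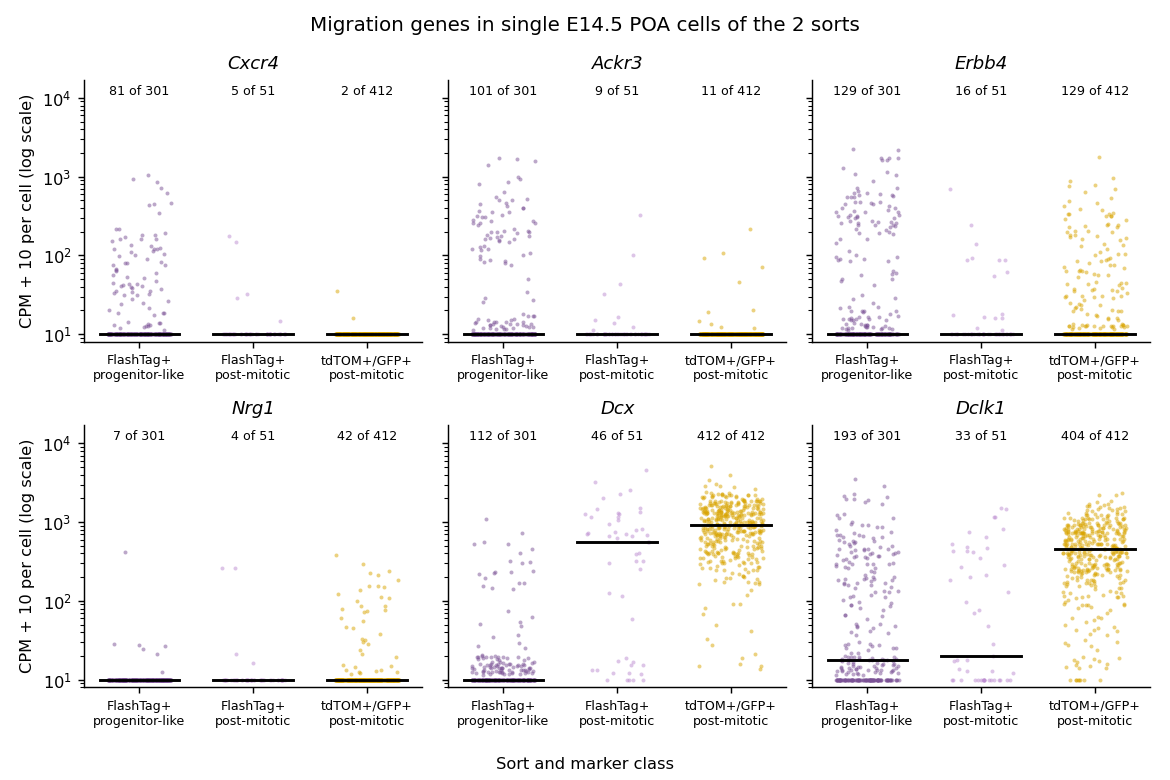
Each point is 1 E14.5 POA cell, with its CPM plus 10 on a log scale, for FlashTag+ progenitor-like cells (dark purple), FlashTag+ post-mitotic cells (light purple) and tdTOM+/GFP+ post-mitotic cells (yellow); black lines are medians, and the text gives the cells with a count of all cells. Cxcr4 and Ackr3 counts are found in 81 and 101 of 301 FlashTag+ progenitor-like cells and in 2 and 11 of 412 tdTOM+/GFP+ post-mitotic cells, while Dcx is counted in all 412 of the latter.

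All 4 genes with a mean of 20 CPM or more were past the fold, Dcx (log2 fold 2.72) and Dclk1 (1.39) higher and Ackr3 (-2.66) and Erbb4 (-1.16) lower in tdTOM+/GFP+ cells. By sums of thinned counts Erbb4 was at 42.8 and 92.6 CPM (-0.96), no longer past the fold. Of the 7562 genes read, 8.04% were higher and 13.3% lower past the fold. Cxcr4 had a log2 fold of -1.67 at a mean under 20 CPM, and Nrg1 0.39. The directions and calls of the 4 genes also held in cells of plate rows 1 to 20 and 21 to 40 (by the row number in the cell names) taken apart, for example 0.96 against 50.35 CPM and 1.24 against 70.23 CPM of Ackr3.

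Among post-mitotic cells alone the picture differed. Erbb4 was at 39.19 CPM in the 412 tdTOM+/GFP+ cells and 25.78 CPM in the 51 FlashTag+ cells, so its direction turned (log2 fold 0.46). Ackr3 was at 0.97 and 6.82 CPM (-0.62), with counts in 11 and 9 cells, and Cxcr4 at 0.066 and 7.69 CPM, with counts in 2 and 5 cells. Dcx was at 982.6 and 768.0 CPM (0.35), and Dclk1 at 532.3 and 249.7 CPM (1.06), still past the fold. The share of all genes past the fold was not taken for these cells. The 301 progenitor-like FlashTag+ cells carried most receptor counts of that sort, with Cxcr4 at 24.55 CPM in 26.91% of cells, Ackr3 at 69.6 CPM in 33.55% and Erbb4 at 111.8 CPM in 42.86%, against 27.82 CPM of Dcx.

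Of the 39 pathway genes, 27 could be read between the sorts, with 8 past the fold on the tdTOM+/GFP+ side and 7 on the FlashTag+ side. Beside Dcx and Dclk1 the first side held Cdk5r1, an activator of the kinase CDK5 (361.6 against 111.3 CPM), the microtubule protein gene Map1b (3984.5 against 1373.9), the semaphorin receptors Nrp1 (219.7 against 84.6) and Nrp2 (175.1 against 59.68) and the interneuron transcription factors Dlx1 (842.5 against 93.66) and Dlx2 (93.35 against 26.89). On the FlashTag+ side, beside Ackr3 and Erbb4, were Nde1, a partner of LIS1 in nuclear movement and mitosis (8.43 against 79.84 CPM), the reelin adaptor Dab1 (23.0 against 121.7), the slit receptor Robo1 (56.16 against 129.6), the neurotrophin receptor Ntrk2 (64.14 against 162.8) and Zeb2 (25.19 against 106.2). Erbb2, a co-receptor of ERBB4, had 1 count in tdTOM+/GFP+ cells and 2986 in FlashTag+ cells (27.83 CPM). Nrg3 was at 10.22 and 3.25 CPM, Nrg4 at 0.92 and 0.03 and Nrg2 at 0.49 and 0.03. Progenitor markers were at 237.5 CPM in tdTOM+/GFP+ and 6161.6 CPM in FlashTag+ cells, astrocyte markers, among them the radial glia gene Slc1a3, at 6.0 and 1282.7 CPM and cycling markers at 108.0 and 946.5 CPM.

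In the labelled cortical cells Erbb4, Dcx and Dclk1 still had counts, while Cxcr4, Ackr3 and Nrg1 had counts in few cells. Over all sorted cells of an age, Erbb4 was counted in 390 of 390 cells at P15 and 580 of 581 at P30, Dclk1 in 389 and 573, and Dcx in 260 (66.67%) and 286 (49.23%). NGCs are here the Dock5 and Lsp1 cells of the tdTOM+ sort (69 at P15, 111 at P30), and non-NGCs the tdTOM- cells with another subtype label (89 and 96).

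No Cxcr4 count was found in any NGC. The limit of 3 counts allows 0.148 CPM at P15 and 0.103 CPM at P30, and bounds counts, not the share of cells that express the gene. Non-NGCs had 24 counts in 3 cells at P15 (0.90 CPM) and 5 counts in 1 cell at P30. Ackr3 had 1 count in the NGCs and 56 counts in 5 non-NGCs at P15 (2.10 CPM). Nrg1 at P30 had counts in 7 of 111 NGCs (1.14 CPM) and 6 of 96 non-NGCs (16.17 CPM), with 46.75% of the latter counts in 1 cell.

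Erbb4 was counted in every NGC. At P15 the 36 Dock5 cells lay between 6.17 and 2959.1 CPM with a median of 929.3, and the 33 Lsp1 cells between 23.51 and 2383.0 CPM with a median of 698.3. Their summed levels were 992.9 CPM (974.0 to 1012.1) and 774.1 CPM (756.7 to 791.9). At P30 the 76 Dock5 cells lay between 5.49 and 2448.1 CPM (median 928.7) and the 35 Lsp1 cells between 11.16 and 1857.1 CPM (median 443.0), with summed levels of 930.3 CPM (916.7 to 944.0) and 587.3 CPM (572.2 to 602.6). Dock5 cells thus had the higher level at both ages, with log2 folds of 0.36 and 0.65, and the ranges of single cells overlapped. At P15 the difference lay in cells of plate rows 21 to 40, at 930.3 against 536.0 CPM, while in rows 1 to 20 the intervals overlapped, at 1033.8 CPM (1009.0 to 1059.0) in Dock5 and 1024.5 CPM (995.8 to 1053.7) in Lsp1 cells.

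Dcx remained in a part of the cells and varied from cell to cell. At P15 it was counted in 26 of 36 Dock5 cells (median 12.24, highest 1192.4 CPM) and 20 of 33 Lsp1 cells (median 4.10, highest 980.7 CPM), at 112.1 and 55.86 CPM. A single cell held 29.42% of the Dock5 counts and 39.93% of the Lsp1 counts. At P30 it was counted in 37 of 76 and 15 of 35 cells, at 89.31 and 60.3 CPM, with medians of 0 in both. In plate rows 1 to 20 at P30 the levels were 104.6 and 7.06 CPM and in rows 21 to 40 they were 77.49 and 96.33 CPM, so the direction at P30 rested on the set of plate rows.

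Dclk1 was at 1249.2 CPM in Dock5 and 1488.8 CPM in Lsp1 cells at P15, with cell medians of 1060.0 and 1243.2 CPM. At P30 it was at 693.8 and 739.7 CPM, with medians of 549.6 and 708.1 CPM. Lsp1 cells of the tdTOM+ sort had the slightly higher level at both ages (log2 folds of -0.25 and -0.09). With cells of both sorts the log2 fold at P15 was 0.0045.

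Of the 3 genes read between Dock5 and Lsp1 NGCs, 0 were past the fold at P15, where 7.35% of the 6966 genes were higher and 7.44% lower in Dock5 cells, and 0 at P30, where 7.01% of 7448 genes were higher and 6.97% lower. The median log2 fold of the 3 genes was 0.36 at P15 and 0.50 at P30, beside -0.01 and -0.02 over all genes. Of the pathway list, 25 genes could be read at P15 and 26 at P30. At each age 1 of them was past the fold on the Lsp1 side and 2 on the Dock5 side. They were the extracellular matrix gene Reln (9405.7 against 3149.3 CPM) and Robo1 (100.6 against 32.63) at P15, and Nrg3 (83.99 against 35.29) and Epha4 (208.8 against 98.13) at P30. The reelin receptor Lrp8 was on the Lsp1 side at both ages, at 60.53 against 204.9 CPM and 55.87 against 145.6 CPM. Nrg3 at P15 was at 42.44 and 66.6 CPM, in the opposite direction. Cxcl12 was at 4.17 and 11.05 CPM at P15, and at P30 at 8.76 CPM in Dock5 cells with 0 counts in Lsp1 cells.

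Between NGCs and non-NGCs, Erbb4 was at 888.2 and 751.6 CPM at P15 (log2 fold 0.24) and at 814.0 and 660.0 CPM at P30 (0.30), with cell medians of 747.4 and 630.6 and of 802.4 and 539.9 CPM. Dcx was at 85.17 and 90.39 CPM at P15 (-0.08) and at 79.48 and 104.1 CPM at P30 (-0.35). Dclk1 was higher in NGCs at P15, at 1363.8 against 885.1 CPM (0.62), and lower at P30, at 709.4 against 831.3 CPM (-0.23). The Dclk1 direction held within both sets of plate rows at each age, with 1522.6 against 826.6 and 1170.7 against 917.2 CPM at P15 and 668.1 against 847.8 and 739.9 against 814.3 CPM at P30. By cell medians, however, NGCs were higher at both ages, at 1122.6 against 719.6 CPM and 615.9 against 566.1 CPM.

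None of these genes was past the fold between NGCs and non-NGCs, 0 of 3 at P15 (5.31% of 7143 genes higher and 6.22% lower in NGCs) and 0 of 3 at P30 (6.06% of 7604 higher and 5.63% lower). Of the pathway list, 24 genes could be read at P15, with 2 higher and 3 lower past the fold in NGCs. At P30 26 could be read, with 3 higher and 2 lower. On the NGC side the pathway list had the receptor gene Egfr (530.2 against 145.1 CPM) and Reln (6412.4 against 1350.2) at P15, and Egfr, Reln and Epha4 at P30 with log2 folds of 2.02, 1.21 and 1.83. On the other side were Map1b, the tubulin gene Tubb2b and Dlx1 at P15 (-1.11, -1.19 and -1.72) and Map1b and Robo1 at P30 (-1.40 for Map1b). Nrg3 was at 54.0 and 107.1 CPM at P15, and Cxcl12 at 7.46 and 18.9 CPM at P15 and 5.79 and 11.96 CPM at P30. At P15 NGC markers were at 11091.9 against 1260.6 CPM and Vip-cell markers at 290.9 against 6946.8 CPM. Other lists differed too, with astrocyte markers at 28.2 and 0.225 CPM, vascular markers at 18.8 and 0.488 CPM and progenitor markers at 132.7 and 45.4 CPM, and at P30 astrocyte markers at 9.55 and 0 CPM. Their part in the levels was not tested.

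**Figure D4:**
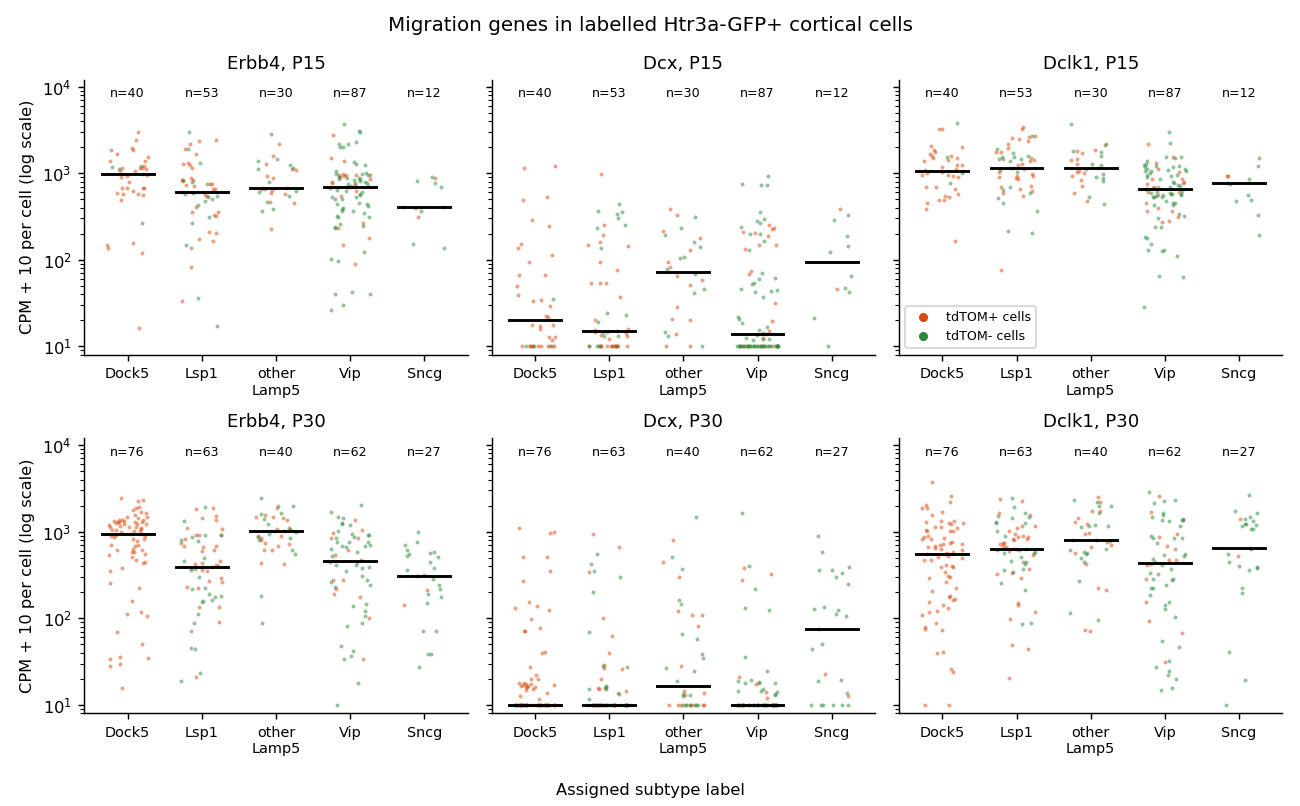
Each point is 1 labelled Htr3a-GFP+ cortical cell, with its CPM plus 10 on a log scale, at P15 (top) and P30 (bottom) for Erbb4, Dcx and Dclk1, grouped by label; tdTOM+ cells are orange-red, tdTOM- cells green, black lines are medians and n counts cells. Erbb4 is counted in all Dock5 and Lsp1 cells with higher medians in Dock5 cells, and Dcx has many cells at 0, with the lowest share of cells with a count, 41.94%, in the Vip group at P30.

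Across broader label groups of both sorts, leaving aside the few Serpinf1 cells, Erbb4 ran at P15 from 984.3 CPM in 40 Dock5 cells over 848.3 in 30 other Lamp5 cells, 782.0 in 87 Vip cells and 736.5 in 53 Lsp1 cells to 527.8 CPM in 12 Sncg cells. At P30 it ran from 1085.8 CPM in 40 other Lamp5 cells over 930.3 in 76 Dock5, 590.5 in 62 Vip and 559.3 in 63 Lsp1 cells to 340.7 CPM in 27 Sncg cells. Sncg cells were lowest at both ages, and single cells of all groups overlapped. Dclk1 was lowest in Vip cells, at 748.5 CPM at P15 and 685.1 CPM at P30 (693.8 CPM in Dock5 cells at P30, with overlapping intervals), and its highest group was Dock5 at P15 (1329.0 CPM, next to 1324.8 CPM in Lsp1 cells, with overlapping intervals) and other Lamp5 cells at P30 (1018.3 CPM). Dcx was highest in Sncg cells at both ages, at 133.1 and 152.5 CPM, and at P30 77.78% of Sncg and 41.94% of Vip cells had a count.

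Single labels with at least 5 cells spread further than these groups, and they also hold fewer cells. The values given are the extremes of 12 labels at P15 and 16 at P30. Erbb4 at P30 went from 1618.7 CPM in 5 Lamp5 Krt73 cells to 198.2 CPM in 7 Sncg Gpr50 cells, and at P15 from 1125.7 CPM in 5 Lamp5 Fam19a1 Tmem182 cells to 385.3 CPM in 13 Vip Ptprt Pkp2 cells. Dcx was lowest in the Vip Crispld2 Htr2c label at both ages, at 20.61 CPM (5 cells) and 3.08 CPM (6 cells), and highest in Vip Ptprt Pkp2 at P15 (142.7 CPM) and in Vip Pygm C1ql1 at P30 (272.2 CPM, 67.98% of it from 1 of 7 cells). Dclk1 went from 1488.8 CPM in tdTOM+ Lsp1 cells to 404.9 CPM in Vip Crispld2 Htr2c at P15, and from 1589.5 CPM in Lamp5 Krt73 to 236.4 CPM in 8 Vip Crispld2 Kcne4 cells at P30.

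The chemokine receptors and Nrg1 stood out in single labels that rest on single cells. Cxcr4 at P15 was at 86.05 CPM in the tdTOM+ Lamp5 Ntn1 Npy2r label, where 4 of 9 cells had counts and 1 cell held 90.99% of them, while 9 of the 12 labels had no count. The same label had no Cxcr4 count in 12 cells at P30, when all 16 labels were at 0. Ackr3 at P15 was highest in Vip Pygm C1ql1, at 18.18 CPM from 3 of 7 cells, and at 0 in 6 labels. Nrg1 at P30 was at 116.8 CPM in Sncg Gpr50 from 2 of 7 cells, and at 0 in 8 labels.

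The tdTOM+ sorts of the 3 ages were set side by side over gene rows that their tables share, 11449 rows for Cxcr4, Erbb4, Dcx and Dclk1. Erbb4 was at 47.62 CPM at E14.5, 908.7 CPM at P15 and 987.2 CPM at P30, and was counted in 31.58%, 100.0% and 100.0% of cells, with medians of 0, 795.0 and 862.6 CPM. Dcx went the other way, with 1201.3, 97.66 and 89.9 CPM, counts in 100.0%, 65.82% and 47.18% of cells and medians of 1105.2, 8.40 and 0 CPM. Dclk1 was at 649.8, 1177.1 and 935.5 CPM, in 97.85%, 99.49% and 99.0% of cells.

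Cxcr4 was at 0.080, 4.48 and 0.049 CPM, with counts in 2, 8 and 2 cells, and 78.5% of the 270 counts at P15 lay in 1 cell. Over 12863 rows shared by E14.5 and P15 Ackr3 was at 1.37 and 2.16 CPM, with 97.7% of the counts at P15 in 1 cell, and over 16384 rows shared by E14.5 and P30 Nrg1 was at 7.39 and 6.06 CPM. The cells at E14.5 were taken from the POA and those at P15 and P30 from the cortex, and the embryonic tissue was dissociated with trypsin and the postnatal tissue with papain. Age, tissue, dissociation and table cannot be told apart, and no fold is given between ages.

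The patch-seq cells carried the same subtype names, in 20 Dock5 and 27 Lsp1 cells. Per the paper, a model trained on the sorted cells and on published adult cells gave these names. The patch-seq values are therefore not an independent repeat of the sorted cells. Erbb4 lay between 0 and 656.6 CPM with a median of 101.0 in Dock5 cells and between 0 and 273.1 CPM with a median of 28.6 in Lsp1 cells. The summed levels were 170.2 CPM (161.4 to 179.4) and 51.07 CPM (49.17 to 53.03), a log2 fold of 1.56 with Dock5 cells higher, as in the sorted cells. An Erbb4 count was found in 14 (70.0%) and 23 (85.19%) cells. Depth was uneven, from 33826 to 15968484 counts per patch-seq cell. At a matched depth of 101700 counts, 12 of 17 Dock5 cells (70.59%) and 17 of 25 Lsp1 cells (68.0%) had an Erbb4 count. Dclk1 was counted in every cell, between 5.86 and 835.0 CPM (median 293.0) in Dock5 cells and between 137.6 and 960.5 CPM (median 377.9) in Lsp1 cells, a log2 fold of -0.65. A single Lsp1 cell held 43.53% of the Lsp1 Dclk1 counts. Of these 2 genes with a mean of 20 CPM or more, 1 was past the fold, where 7.79% of the 7139 genes were higher and 7.69% lower in Dock5 cells.

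**Figure D5:**
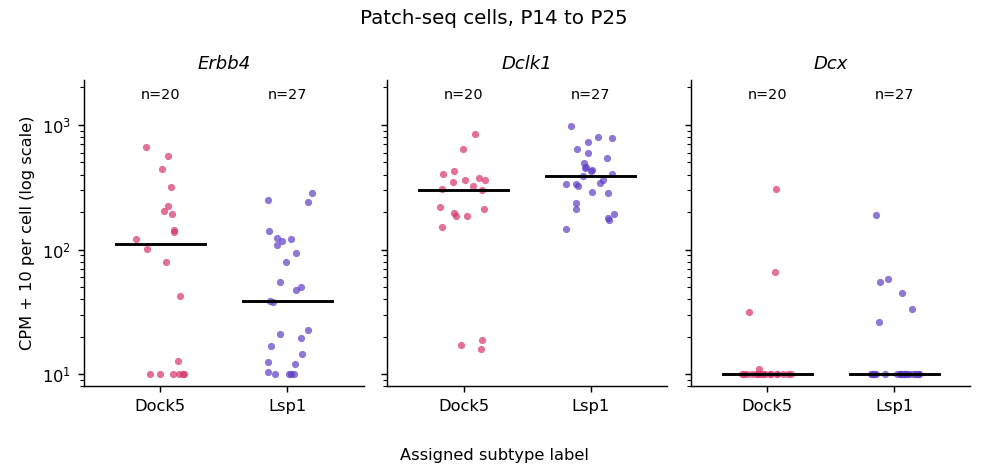
Each point is 1 patch-seq cell of P14 to P25, with its CPM plus 10 on a log scale, for 20 Dock5 (pink) and 27 Lsp1 (violet) cells; black lines are medians. Erbb4 has medians of 101.0 and 28.6 CPM, Dclk1 is counted in every cell, and Dcx is at 0 in most cells of both labels.

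Dcx was counted in 4 Dock5 and 6 Lsp1 cells, at 11.76 and 26.56 CPM. Cxcr4 and Ackr3 had no count in Dock5 cells, where 3 counts would be 0.367 CPM, and were at 0.32 CPM (2 cells) and 5.30 CPM (3 cells) in Lsp1 cells. At the matched depth 0 Lsp1 cells had a Cxcr4 count and 3 had an Ackr3 count. Nrg1 was at 0.24 and 2.11 CPM. On the pathway list 5 of 24 genes were past the fold on the Dock5 side, namely Erbb4, Egfr (1.17), Reln (2.30), Robo2 (1.29) and Dlx2 (1.72), and 4 on the Lsp1 side, namely Cdk5r1 (-1.61), Map1b (-1.01), Lrp8 (-1.48) and the GDNF receptor gene Gfra1 (-1.93). Transcripts of other cells differed between the labels in the pipette samples. Oligodendrocyte markers were at 1253.3 CPM in Dock5 and 5950.5 CPM in Lsp1 cells, microglia markers at 116.8 and 246.5 CPM, glutamatergic markers at 23.63 and 243.7 CPM and red-blood transcripts at 1233.9 and 1833.7 CPM. In the sorted NGC and non-NGC groups of P15, microglia markers reached at most 0.113 CPM, and at P30 they had no row. Their part in the values of the 6 genes was not tested.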

How the data were processed

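Single-cell RNA was measured in 1790 samples, each 1 cell from a C1 chip or a pipette or a droplet library. Per the labels and methods, the authors aligned reads to mm10, removed UMI duplicates (STAR and UMI-tools for C1 cells, Cell Ranger for droplets), and deposited raw counts per gene and cell. Labels gave every sort, age and subtype. The 6 genes, the 39 pathway genes in 7 lists, the 14 marker lists and the genes named were chosen with earlier results of these data known. Named were the 6 genes in every comparison, pathway genes past the fold (1 is not reported here), 6 ligand and co-receptor genes, the 3 genes most correlated with a gene over the bins (at least 50 CPM in 1 bin), and extreme labels of at least 5 cells.

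Here, counts were summed per group and scaled to CPM. Shares were also taken after random thinning to percentile 10 of depth (seed 7). Depth bounds the precision, and since counts of 1 cell come together the Poisson intervals are too narrow for C1 cells. Serpinf1 cells, meant to join the Sncg group, were kept apart. No doublet program was run. 0 columns were unused. The fold calculation was tested on simulated group sums with known folds, without variation between cells, and thinning was checked for its depth. Other steps were not tested on simulated data. Alternatives are given in the closing section, 3 of them chosen after seeing the data (Gad1 or Gad2 subset, shared barcodes left out, deepest patch-seq cells left out). The tools were scipy 1.17.1, pandas 2.3.3, numpy 2.4.6 and matplotlib 3.10.9 in Python 3.11.15.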

Additional observations from a re-analysis of the deposited data

Results flagged for a closer look

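The log2 fold of Dclk1 between NGCs and non-NGCs was 0.62 at P15 and -0.23 at P30, in opposite directions. With 1 sample per group the difference between the ages was not tested. Between the whole tdTOM+ and tdTOM- sorts at P30 the log2 fold was 0.07.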

How the results depend on the processing

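No paired analysis was possible because no label ties a cell to an animal, and the numbers given to cells and libraries only name them. Of 82 counts of genes past the fold under alternatives, 67 stayed within 1.5 times the reported count and 15 did not. Many of the 67 are from the comparisons of sorted postnatal cells, where a reported 0 stayed 0. Changes from 4 to 3 and from 2 to 3 are also among the 67. Between post-mitotic POA and CGE cells the 2 genes became 0 with 100 CPM added, 0 in progenitor-like cells, 1 with cells holding counts of other cell types left out and 1 in the Gad1 or Gad2 subset. Erbb4 turned to log2 folds of 0.12 without those cells and 0.55 in progenitor-like cells. Between tdTOM+/GFP+ and FlashTag+ cells the 4 genes became 2 with 100 CPM added, 2 by shares of thinned cells and 1 in post-mitotic cells, where Erbb4 turned to 0.46. By thinned sums the 4 became 3, with Erbb4 at -0.96. Between Dock5 and Lsp1 NGCs 0 became 1 (Dcx) at P15 by thinned sums, without the largest cell and in plate rows 21 to 40, and 1 (Dcx) at P30 in plate rows 1 to 20. Between NGCs and non-NGCs at P30, 0 became 1 (Nrg1) with no filter. In patch-seq cells 1 became 0 with 100 CPM added, 0 by shares of thinned cells and 2 in cells of P15 to P18. Along the order 2 became 3 with the score of the other markers. The causes were not tested, but 100 CPM shrinks every fold by construction.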
